A study of Homo sapiens with 15 samples.

Results

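The series holds 15 RNA-seq libraries of human HEK293 cells, and 6 of them are its baselines: 3 libraries of cells labelled Flag/HA-control and 3 of cells labelled Parental. These 6 were chosen by label and are set side by side here as 2 starting points, not as an untreated and a treated group. Of the 55773 genes in the deposited table, 19026 had a normalized count of at least 10 in 3 or more of the 6 libraries, and these were tested. HEK293 is an established human embryonic kidney cell line, and the study asked what the RNA-binding zinc finger proteins ZC3H7A and ZC3H7B do in it. In the other 9 libraries either protein was overexpressed, or both were depleted together (the group labelled DD).

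The control cells carry the Flag/HA tag construct without ZC3H7A or ZC3H7B and are labelled as treated with doxycycline, which the protocol gives as 1 µg/mL for 24 h. Lysis was in hypotonic buffer with Triton X-100 and deoxycholate, as for polysome gradients, a share of each lysate was kept for RNA-seq, and libraries were made with the TruSeq RNA kit v2. Parental cells are labelled wild type with a control shRNA. They were selected in puromycin at 5 µg/mL, came off the drug 2 passages before collection, and had their libraries made by a company with an Illumina-compatible protocol that is not described further in the sources used here. No doxycycline, polysome lysis or Flag/HA construct is given for Parental. The labels call the RNA of both groups polyA RNA. The protocols describe HEK293 and Flp-In T-REx 293 cells without saying which group used which, so cells, drug, lysis and library protocol differ together and cannot be told apart. The 3 control libraries are described as independent replicates. For Parental nothing says that the 3 came from separate cultures, so p-values measure only the spread between these libraries.

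Most mRNAs end in a poly(A) tail, which oligo(dT) beads bind, so a poly(A) selection keeps them and loses RNAs without a tail. Replication-dependent histone mRNAs are the main exception among animal mRNAs: they end in a conserved stem-loop that the stem-loop binding protein SLBP recognises, although some histone genes can also give polyadenylated transcripts. Transcripts of RNA polymerase III such as 7SK, 7SL and the RNA subunits of RNase P and RNase MRP are highly abundant, fold into stable structures and carry no tail. Most mitochondrial mRNAs, and the mitochondrial rRNAs, carry short tails added inside the organelle.

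Sequences of members of these classes are shown first, because the classes are known for how their RNAs end. The part of these sequences in the differences was not tested. They come from GENCODE 29 transcripts on GRCh38, whereas the deposited table was made on hg19. For 3 histone genes the window around the stem-loop is given, with the 16 bases of the motif (GGC, any base, CTTTT, any base, AG, any base, GCC) in capitals and 6 bases on each side. These windows are not the ends of the models. At least 86 bases follow the motif in HIST1H4B, 1479 in HIST2H2BF and 390 in HIST3H2A. For 2 replication-independent histone genes the last 30 bases are given, with the polyadenylation hexamer in capitals. An annotated transcript of HIST2H2BF also has this hexamer in its last 50 bases.
HIST1H4B: tccaatGGCCCTTTTCAGGGCCgcccac
HIST2H2BF: cccaaaGGCTCTTTTCAGAGCCacttca
HIST3H2A: cataaaGGCTCTTTTCAGAGCCacctac
H2AFZ: ataagttcAATAAAggtcatatcccaaact
H3F3B: atgagactaaAATAAAatttttgaagttaa
The genes lie at chr6:26026815-26027252 (HIST1H4B, minus strand), chr1:149782689-149812373 (HIST2H2BF, minus strand), chr1:228456979-228457873 (HIST3H2A, minus strand), chr4:99948086-99950388 (H2AFZ, minus strand) and chr17:75776434-75785893 (H3F3B, minus strand). The motif, searched on the sense strand, was found in transcripts of 31 of the 71 histone genes and of 3 of 19004 other coding genes (0.0158%), among them H2AFX and NOP58. Many annotated histone models stop at the coding sequence, so a missing match says only that these letters are not in the model.

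For 5 of the small structural RNAs the last 40 bases of the model are shown because none of these models ends in a run of A. The end of a model need not be the end of the mature RNA, also for TERC, whose model has 541 bases. Capitals mark any T at the very end, which is 4 bases in RNY1, 1 in RN7SK and RMRP and none in RPPH1 and TERC. TERC, the telomerase RNA, is made by RNA polymerase II and is processed without a tail.
RN7SK: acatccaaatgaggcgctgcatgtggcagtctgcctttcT
RPPH1: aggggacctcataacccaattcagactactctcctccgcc
RMRP: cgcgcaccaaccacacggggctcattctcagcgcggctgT
TERC: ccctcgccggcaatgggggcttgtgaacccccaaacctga
RNY1: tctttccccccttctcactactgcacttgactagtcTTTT
Their genes lie at chr6:52995621-52995948 (RN7SK, plus strand), chr14:20343075-20343407 (RPPH1, minus strand), chr9:35657751-35658018 (RMRP, minus strand), chr3:169764520-169765060 (TERC, minus strand) and chr7:148987136-148987248 (RNY1, minus strand). The longest run of A anywhere in these models was 6 bases, in TERC.

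The control libraries held 46503303 to 57285082 reads assigned to genes and the Parental libraries 12220382 to 13692599. Replicates were closer to each other in control, with a biological coefficient of variation of 2.02%, than in Parental with 10.3%. Among lineage genes of HEK293 cells, PAX2, a transcription factor of the kidney primordium, had a normalized count of 263, 242 and 262 in control and of 240, 281 and 248 in Parental, which did not pass the test (limma, adjusted p = 0.993). Of 13 tested lineage genes, 7 (53.8%) were called higher in Parental and 3 (23.1%) higher in control, beside 30.2% and 43.4% of nuclear coding genes. Those higher in Parental included the intermediate filament gene VIM at 7273, 7627 and 7740 against 25989, 27705 and 29615, and those higher in control included the kidney gene LHX1 at 254.2, 267.3 and 256.5 against 157.6, 152.8 and 178.6. The lineage gene furthest apart was NEFM, a neurofilament gene, at 34.1, 25.8 and 35.4 in control and 0, 4.93 and 0 in Parental. In bulk libraries, more cells with a gene on and more RNA per cell cannot be told apart. Of the markers of other cells, 7 of 9 leukocyte genes, 6 of 9 fibroblast genes, 5 of 6 endothelial genes and 5 of 8 genes of keratinised epithelium stayed under the filter. The summed value of the leukocyte list was 60.4 to 71.4 in control and 34.5 to 52.3 in Parental, of the fibroblast list 157.1 to 192.4 and 193.2 to 309.4, and of the endothelial list 25.4 to 30.3 and 6.5 to 22.2. The list for keratinised epithelium summed to 3601 to 3777 and 2606 to 2764, and its members went both ways. EPCAM had 3011, 3177 and 3108 in control and 1439, 1368 and 1100 in Parental, whereas KRT19 had 575, 582 and 579 against 1130, 1304 and 1412 and CDH1 had 7.84, 8.01 and 7.93 against 79.9, 91.2 and 91.5. EMCN had no read in the 6 libraries, and PTPRC, CDH5, COL1A2, KRT5 and KRT14 had none in Parental and at most 1.145 in control. The part of other cells in the differences was not tested. ZC3H7A had 3180, 3374 and 3223 in control and 1585, 1528 and 1684 in Parental, and ZC3H7B had 5951, 5818 and 6044 against 5948, 6484 and 6958, so neither baseline lacked either protein's mRNA.

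The largest contrast between the baselines was in the classes of RNA that the libraries held. Small structural RNAs took 0.00545%, 0.00436% and 0.0045% of all assigned reads in the 3 control libraries and 6.62%, 6.42% and 5.8% in the 3 Parental libraries. Replication-dependent histone mRNAs took 0.0264%, 0.0266% and 0.0271% in control and 1.22%, 1.26% and 1.28% in Parental. Mitochondrial rRNAs went the other way, with 0.801%, 0.796% and 0.814% in control and 0.0114%, 0.0107% and 0.0114% in Parental. Parental over control, the ratio of mean shares was 1320 for small structural RNAs and 47.0 for histones, and control over Parental it was 72.1 for mitochondrial rRNAs.

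The other classes are given as mean shares. Copies of 7SK and 7SL in the genome, named RN7SKP or RN7SL with a number, took 0.00272% ± 0.000182 (SD, n = 3) in control and 0.615% ± 0.0275 in Parental. Processed pseudogenes, which are intronless genomic copies of mRNAs, took 0.164% ± 0.00202 in control and 2.28% ± 0.113 in Parental. Other small non-coding RNAs (small nuclear, nucleolar and Cajal body RNAs, microRNA genes and further types) took 0.0158% ± 0.000361 and 0.0549% ± 0.00161, a ratio of 3.48. This class is mixed. Small nuclear RNAs took 6.11e-05% to 9.03e-05% in control and 0.00402% to 0.00511% in Parental, and small Cajal body RNAs 0.000627% to 0.000643% and 0.0117% to 0.0124%. For small nucleolar RNAs the shares were 0.00425% to 0.00462% and 0.0132% to 0.015%, and for microRNA genes 0.00683% to 0.00708% and 0.0121% to 0.0142%. Mitochondrial mRNAs took 4.33% ± 0.161 in control and 2.69% ± 0.516 in Parental. Genes of the cytosolic ribosome took 3.66% ± 0.0603 and 5.19% ± 0.341, and all other protein-coding genes 88.6% ± 0.167 and 78.5% ± 1.51. Long non-coding RNAs took 0.679% ± 0.00458 and 0.915% ± 0.117, and names without a matched gene type 1.46% ± 0.0111 and 2.07% ± 0.0609.

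In all 13 classes, which also include mitochondrial tRNAs and other pseudogenes, the 3 control and the 3 Parental libraries did not overlap, and the two-sided exact permutation test gave p = 0.1 for each (adjusted p = 0.1 over the 13 classes), the smallest value that 3 against 3 libraries allow. In the other libraries of each experiment, histones took 0.00965% to 0.0125% in the 6 overexpression libraries and 1.12% to 1.14% in the 3 DD libraries, and small structural RNAs 0.000782% to 0.00136% and 5.61% to 5.9%. The overexpression libraries thus lay below the control libraries in both classes. Shares add up to the whole, so a class that takes more reads lowers all others.

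**Figure D1:**
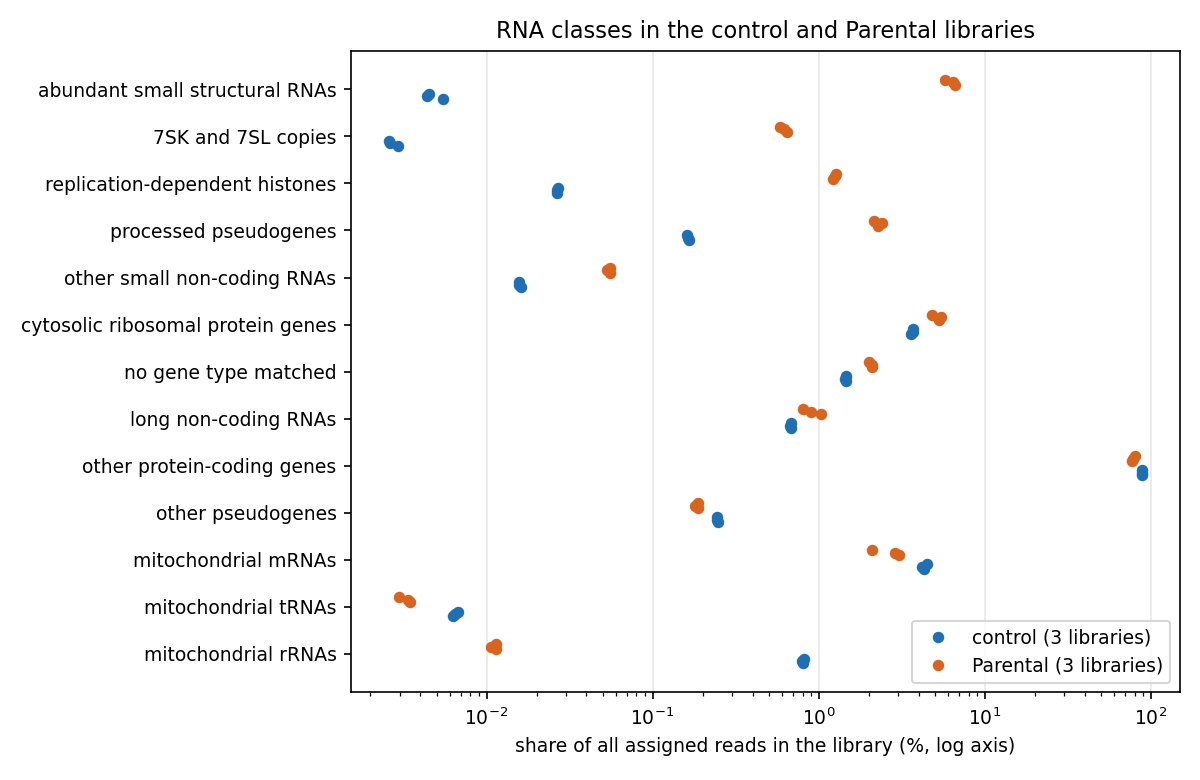
Share of assigned reads (%, log axis) of each RNA class in the 3 control (blue) and 3 Parental (orange) libraries, 1 point a library, ordered by the ratio of Parental to control. Small structural RNAs, 7SK and 7SL copies, histones and processed pseudogenes sit to the right in Parental, and mitochondrial rRNAs sit to the left, at about 0.0112% against 0.804%.

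Across all tested genes, 6896 were called higher in Parental and 7300 higher in control, which is 74.6% of the 19026 (limma, adjusted p under 0.05). Calls in the direction of Parental made up 36.2% and calls in the direction of control 38.4%, and the median log2 difference (Parental minus control, on log2 of the value plus 1) was -0.05. The 3 Parental libraries lay above all 3 control libraries in 38.2% of tested genes and below all of them in 41.0%. Among the nuclear coding genes outside the histone list the shares called were 30.2% higher in Parental and 43.4% higher in control, with a median of -0.14. With this background, a call alone says little about a gene, and each group below is described by how many members were called, how far, and in which direction.

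Of 15 small structural RNAs, 10 passed the filter, and these 10 were called higher in Parental, with a median log2 difference of 9.27, beside 36.2% of all tested genes and a median of -0.05. For 4 of the 10 all control libraries were under 10, so they passed through Parental alone and had to differ. RN7SK, the RNA that holds the transcription elongation factor P-TEFb inactive, had a normalized count of 28.1, 21.8 and 15.3 in control and of 692322, 699926 and 639400 in Parental. That was a ratio of 30700, and a log2 difference of 14.90 ± 0.184 (SE; limma, adjusted p = 1.54e-09). All 3 Parental libraries lay far above all 3 control libraries. RPPH1, the RNA subunit of RNase P that cuts the 5′ leader from tRNA precursors, had 20.3, 26.9 and 18.0 in control and 366367, 360227 and 319369 in Parental. RMRP, the RNA subunit of RNase MRP that takes part in ribosomal RNA processing, had 17.5, 12.0 and 7.93 against 127211, 122497 and 134714.

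RN7SL1, RN7SL2 and RN7SL3 encode or resemble 7SL, the RNA scaffold of the signal recognition particle. RN7SL1 had 378, 362 and 348 in control and 485403, 486511 and 414782 in Parental, a ratio of 1270. RN7SL2 had 980, 711 and 785 in control and 277263, 252875 and 210882 in Parental. The 3 genes share most of their sequence with each other and with many genomic copies (98.1% of the 31-base words of RN7SL1 occur at another locus), so how reads were divided among them is uncertain. The same holds for RN7SK and its copies, at 89.6% of its words. TERC had 13.8, 22.9 and 25.4 against 2840, 2803 and 2756, and here no word occurs at another locus. Exons of other genes on the same strand cover 81.0% of the exon bases of TERC and 100% of those of RN7SK, RN7SL1 and RPPH1. All of these RNAs were high in each of the 3 Parental libraries and low in each of the 3 control libraries.

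The short members of the same list were scarce in both baselines. RNY1, a Y RNA that binds the Ro60 protein, had 1 read over the control libraries and normalized counts of 300, 286 and 137 in Parental, a ratio of 1390 with a 95% exact interval of 247 to 54900. RNY3 had no read in control and 36 reads in Parental, at least 53.0-fold higher against a floor of 3 reads over the control group. The vault RNA VTRNA1-3 had 4 reads in control and 40 in Parental, a ratio of 44.1 (16.0 to 170). Intervals and floors cover counting error only. Of the 31-base words, 95.2% in RNY1 and 100% in RNY3 occur at another locus, so the values of these genes are uncertain. VTRNA1-1, VTRNA1-2 and RNY5 did not pass the filter, and RNY4 and VTRNA2-1 had no read in the 6 libraries. Their models are 89 to 128 bases long, against 268 to 541 bases for RMRP, the 7SL genes, RN7SK, RPPH1 and TERC.

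Apart from the structural RNAs, the other annotated small RNAs (nuclear, nucleolar and Cajal body RNAs and microRNA genes) were set out by length. Of 14 with 250 bases or more, 8 had a mean normalized count of at least 100 in Parental and 0 in control. Of 1419 under 100 bases, 6 reached that level in Parental and 2 in control, and of 294 with 100 to 150 bases, 8 and 0 did. Per kilobase of the model, 500 normalized counts were reached in Parental by 5 of the 14, 15 of the 1419 and 11 of the 294, and in control by 0, 5 and 2. Small Cajal body RNAs, which guide modification of the spliceosomal RNAs, were called higher in Parental in 12 of 12 tested members, of 23 in the table, with a median log2 difference of 4.72. Of all tested genes, 36.2% were called higher in Parental, and in 8 of the 12 all control libraries were under 10. SCARNA2 had 16.6, 22.9 and 12.2 in control and 1665, 1647 and 1656 in Parental, and SCARNA10 had 3.69, 4.01 and 3.17 against 864, 804 and 780. SCARNA15 differed least, at 59.5, 67.5 and 64.0 against 122, 138 and 133. Exons of other genes on the same strand cover 100% of the models of SCARNA2 and SCARNA15 and 75.2% of that of SCARNA10.

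Small nuclear RNAs, the cores of the spliceosome, are among the most abundant RNAs of a cell, yet stayed at or under 486 normalized counts in all 6 libraries. Of 22 names, 14 were tested and called higher in Parental, beside 36.2% of all tested genes. Their median log2 difference was 4.79. All 14 were under 10 in every control library and passed through Parental alone. RNU4-2, the U4 RNA, had 0.923, 0.572 and 0.529 in control and 397, 486 and 264 in Parental, a ratio of 548 (213 to 2020). RNU11 of the minor spliceosome had 0.923, 1.15 and 1.06 against 200, 192 and 146, with 97.8% of its model under same-strand exons of other genes. RNU1-1, the U1 RNA, had 1.38, 1.72 and 0 against 55.5, 51.8 and 50.1. U1, U4 and U5 RNAs have many near-identical genes, so values of single genes are uncertain.

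Of 386 small nucleolar RNAs, 66 were tested, 42 were called higher in Parental and 8 higher in control, and the median log2 difference was 2.04. Of the 66, 30 were under 10 in every control library and 3 in every Parental library. SNORD3A, the U3 RNA needed for the first cuts of the ribosomal RNA precursor, had 0.461, 0 and 1.06 against 415, 444 and 420. Its value is uncertain, since 99.7% of its words occur at another locus. SNORA71C had 39.7, 43.5 and 37.5 against 271, 279 and 318. Most members sit in introns of longer genes, and without a stated strand or counting mode their reads cannot be told apart from those of the host. MicroRNA genes were split, with 14 of 37 tested (37.8%) called higher in Parental and 9 (24.3%) higher in control (median 0.24). Over all tested genes the shares were 36.2% and 38.4%. MIR3648 was the furthest apart, at 1.38, 1.15 and 2.65 against 748, 717 and 1227. However, 100% of its words occur at another locus, as do 90.9% of those of MIR4426, so these values are uncertain. Among those whose models lie wholly under exons of longer genes on the same strand, MIR4426 had 12.9, 20.6 and 15.3 against 884, 888 and 741 and MIR10A had 45.2, 33.2 and 37.5 against 231, 170 and 283, whereas MIR3916 and MIR4453 were higher in control, at 563, 540 and 564 against 191, 136 and 150 for MIR3916.

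**Figure D2:**
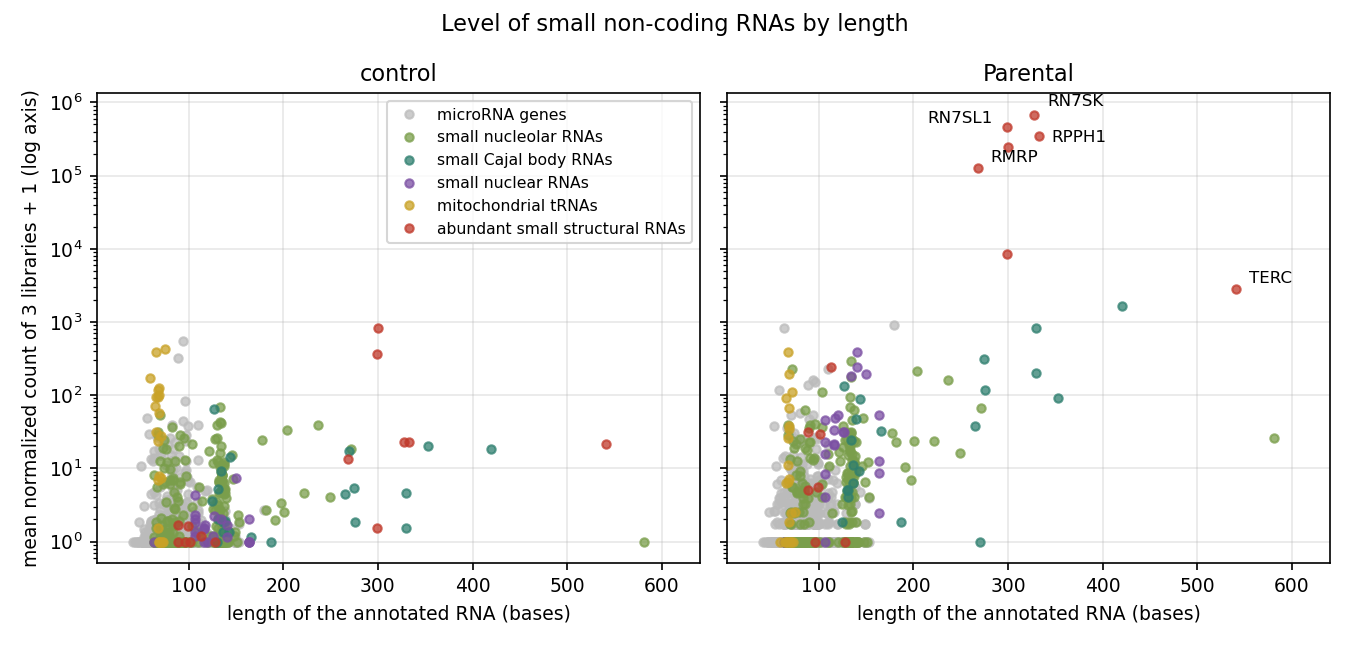
Mean normalized count plus 1 of 3 libraries (log axis) against the length of the annotated RNA in bases, for control (left) and Parental (right), 1 point a gene, coloured by family. In Parental the values above 897 all belong to RNAs of 250 bases or more, up to RN7SK, whereas in control no value passes 826.

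Among the lists of coding genes, the replication-dependent histones had the largest median difference. Of 71 replication-dependent histone genes in the table, 55 passed the filter, and 53 of these were called higher in Parental, 1 higher in control and 1 was not called. Their median log2 difference was 8.09, whereas 30.2% of other nuclear coding genes were called higher in Parental, with a median of -0.14. Of the 55, 26 were under 10 in every control library and passed through Parental alone. Of the 16 that did not pass, 5 had no read in the 6 libraries. All 5 histone types were among the called genes. HIST2H2BF, an H2B gene, differed most, with 14.3, 8.01 and 10.1 in control and 35590, 34992 and 36031 in Parental, a log2 difference of 11.59 ± 0.171 (SE; limma, adjusted p = 3.27e-09). HIST1H4B, an H4 gene, had 3.23, 2.29 and 3.17 against 6146, 7329 and 8329, a ratio of 2480 (1550 to 4260). HIST1H3B, an H3 gene, had 12.0, 14.3 and 11.6 against 23567, 24345 and 22184, and HIST1H1E, a linker histone gene, had 13.4, 13.2 and 11.6 against 17427, 19678 and 20232. No library of either group overlapped the other for these genes.

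Several smaller differences belonged to histone genes that were also well covered in control. HIST1H2BK, an H2B gene, had 2796, 2883 and 3018 in control and 33398, 34625 and 33658 in Parental (log2 difference 3.55). HIST3H2A had 497, 498 and 497 against 4958, 5443 and 5135 (3.38), HIST1H1C had 741, 773 and 745 against 21604, 24815 and 25195 (4.98), and HIST1H3E had 43.8, 33.2 and 49.2 against 200, 252 and 266 (2.49). HIST1H3J had 11.5, 5.15 and 4.76 against 13.3, 14.8 and 10.9 and was not called (log2 difference 0.87; limma, adjusted p = 0.0505), but it was called without control replicate 1 (1.22; adjusted p = 0.00634) or Parental replicate 3 (0.98; adjusted p = 0.0487). HIST1H4I was the single gene called higher in control, at 83.1, 77.3 and 82.0 against 19.98, 12.33 and 19.61, and its model holds the stem-loop motif.

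Histone genes were then divided by whether any annotated transcript had the polyadenylation hexamer AATAAA in its last 50 bases, a division chosen after the values were seen. AATAAA near an annotated end was present in 74.9% of the other coding genes. The 19 tested histone genes with such a transcript had a median log2 difference of 6.08 (range 2.49 to 11.59), and the 36 without one had 8.30 (-2.19 to 10.86). Their median control level was 35.6 with and 7.33 without, while the median Parental levels were 4440 and 4150. The ranges overlapped widely. The stem-loop motif was in models of 17 of the 19 and of 11 of the 36. A model that stops at the coding sequence cannot show the hexamer. The division therefore also sorts genes by how far their models reach, and does not show which RNAs have a tail. Of those with the hexamer, 6 genes of the duplicated cluster on chromosome 1 (HIST2H2AA3, HIST2H2AA4, HIST2H3A, HIST2H3C, HIST2H4A and HIST2H4B) had no read in any control library. HIST2H4A had 1550, 1812 and 1616 in Parental, at least 3200-fold higher. All but 1 of its cluster mates share 97.2% to 100% of their words with another locus, and HIST2H4B 91.2%, so their values are uncertain. Among genes sharing under 10% of their words, the medians were 4.27 for 6 with the hexamer and 8.20 for 18 without.

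Replication-independent histones, whose mRNAs are polyadenylated, were mostly lower in Parental. Of 10 tested, 1 was called higher in Parental, 6 higher in control and 3 were not called, with a median log2 difference of -0.36. Among nuclear coding genes, 30.2% were called higher in Parental and 43.4% higher in control. H2AFZ, the H2A.Z variant, had 11925, 12241 and 12177 in control and 8022, 8375 and 7834 in Parental, and H3F3B, which encodes the variant H3.3, had 13149, 13963 and 13783 against 9010, 9070 and 8671. H1F0, a linker histone of resting cells, had 4597, 4524 and 4589 against 1681, 1849 and 1627. The exception was H3F3A, the other H3.3 gene, at 429, 403 and 410 against 5777, 5779 and 5553. Of the 10 genes, 9 share under 10% of their words with another locus, with a median of -0.55. The share of H3F3A itself is not given here. Differences for the list thus ran from -1.41 to 3.78, far from the median of 8.09 of the replication-dependent genes.

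The genes that process histone mRNA were not higher in Parental as a group: 3 of 12 were called higher in Parental and 8 higher in control (median -0.23). SLBP had 3144, 3319 and 3270 against 2760, 2850 and 2732, and CASP8AP2 (FLASH), which recruits the histone cleavage complex, had 2989, 2962 and 2944 against 724, 451 and 497. Genes of G1/S and replication were split, with 9 of 31 called higher in Parental and 12 higher in control (median -0.15), near the shares of 30.2% and 43.4% and the median of -0.14 of all nuclear coding genes. Parental replicate 3 stood apart from the other Parental libraries here: MCM2, a subunit of the replicative helicase, had 3464, 3949 and 8688 in Parental against 7117 to 7308 in control. It was not called (log2 difference -0.55; limma, adjusted p = 0.139), but it was without Parental replicate 3 (-0.96; adjusted p = 3.99e-06) and with all 15 libraries in the fit (-0.55; adjusted p = 0.0377). MCM7 had 12745, 15336 and 21437 against 22101 to 22696 and was called (-0.48; adjusted p = 0.0336), but not without any 1 of the other 5 libraries (adjusted p of 0.0789 to 0.104). PCNA, the sliding clamp of DNA polymerase, had 9797, 10462 and 10381 against 8588, 9388 and 9668 (log2 difference -0.15; limma, adjusted p = 0.0561), and was called higher in control without Parental replicate 3 (-0.19; adjusted p = 0.0117), with values scaled to nuclear coding reads (-0.18; adjusted p = 0.0179) or with all 15 libraries in the fit (adjusted p = 0.0134). Of 20 genes of G2 and mitosis, 8 were called in each direction (median 0.01). TOP2A, the mitotic topoisomerase, had 16498, 16396 and 16568 against 8055, 6720 and 7466, whereas PLK1, a mitotic kinase, had 6312, 6402 and 6603 against 6919, 7433 and 8322 and was not called without control replicate 1 (adjusted p = 0.0761) or 2 (adjusted p = 0.0709).

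**Figure D3:**
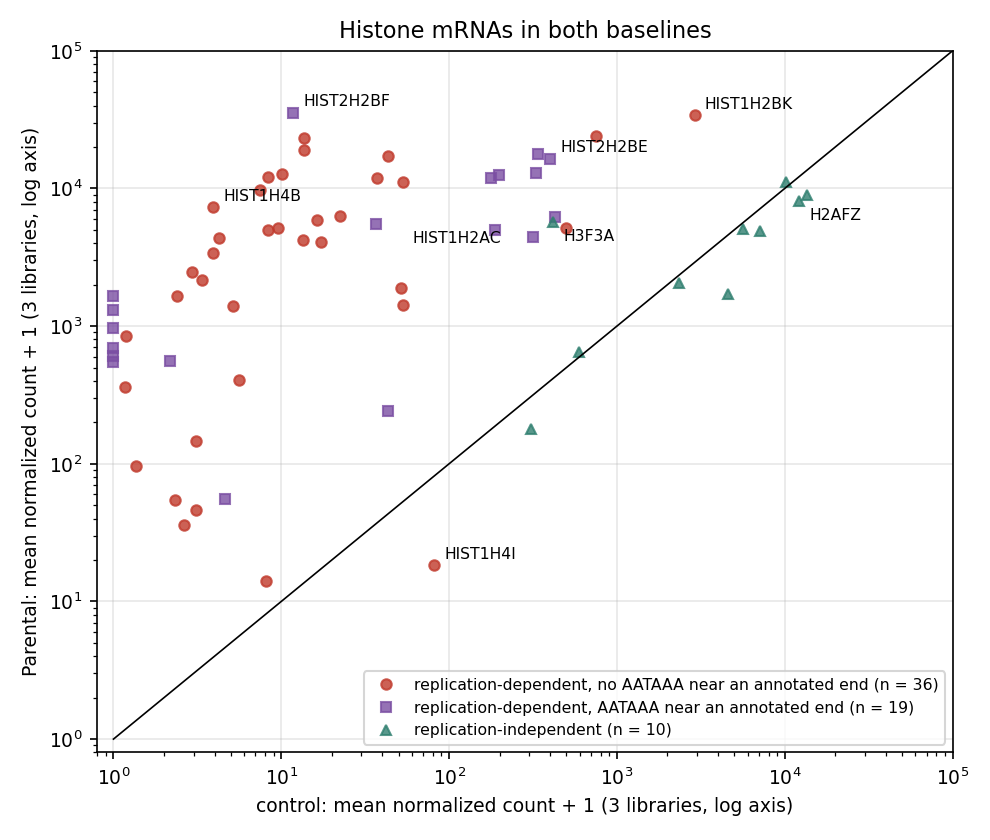
Mean normalized count plus 1 of 3 Parental libraries against that of 3 control libraries (both log axes), 1 point a tested histone gene, with the line of equal values. Replication-dependent genes lie above the line, at a median log2 difference of 8.09, except HIST1H4I, while replication-independent genes lie near it except H3F3A.

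Mitochondrial transcripts were mostly lower in Parental, but not uniformly. Of the 13 mRNAs, 11 were called higher in control, MT-CO1 higher in Parental, and MT-CO3 was not called. Of all tested genes, 38.4% were called higher in control. The median log2 difference of the 13 was -2.38. MT-CO1, the catalytic subunit of complex IV, had 215888, 214503 and 228064 in control and 560948, 544440 and 389215 in Parental (log2 difference 1.16 ± 0.182 SE; limma, adjusted p = 0.000648). MT-CO3, another subunit of complex IV, had 99321, 93685 and 102350 against 91220, 96949 and 69685, and the groups overlapped. MT-CO2, the third of them, had 91175, 93063 and 100565 against 66170, 66010 and 46571. The 3 core subunits of complex IV thus had the smallest departures among the 13.

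Subunits of complex I spanned a wide range. MT-ND1 had 49817, 47133 and 51761 against 16657, 13963 and 11524, and MT-ND5 had 105028, 102783 and 109143 against 36600, 30372 and 21230. MT-ND4 had 223219, 212345 and 226727 against 38516, 35273 and 25461, and MT-ND2 had 57431, 52342 and 61517 against 6059, 5263 and 3998. Of the 13 mRNAs, MT-ND3 and MT-ATP8 differed most. MT-ND3, a small subunit of complex I, had 22478, 21641 and 23211 in control and 906, 814 and 503 in Parental (log2 difference -4.96 ± 0.196). MT-ATP8, which overlaps MT-ATP6 in the genome, had 12511, 12462 and 12421 against 528, 478 and 342, and MT-ND4L, which overlaps MT-ND4, had 19539, 19229 and 19508 against 1830, 1950 and 1479. MT-ATP6 itself, a subunit of the ATP synthase, had 91623, 88804 and 96884 against 21777, 18004 and 12278. MT-CYB of complex III had 125394, 117526 and 128458 against 58494, 53992 and 38634, and MT-ND6, the sole mRNA from the light strand, had 32783, 33116 and 36823 against 7574, 7085 and 5279. In 12 of the 13, Parental replicate 3 held the lowest value of the 6 libraries, and in MT-CO1 the lowest of Parental.

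Both rRNAs were lower in Parental, MT-RNR2 by more than any of the 13 mRNAs. MT-RNR2, the large ribosomal RNA, had 192354, 193081 and 197907 in control and 1934, 1738 and 1810 in Parental, a ratio of 106 (log2 difference -6.73 ± 0.0598 SE; limma, adjusted p = 4.27e-10). MT-RNR1, the small one, had 19410, 18740 and 19427 against 1434, 1472 and 1599, a ratio of 12.8. No library of either group overlapped the other.

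Of 22 mitochondrial tRNAs, 17 were tested. Of these, 6 (35.3%) were called higher in Parental and 11 (64.7%) higher in control, beside 36.2% and 38.4% of all tested genes. For 8 of them all libraries of a group were at 0. MT-TS2 had 166, 168 and 184 in control and no read in Parental, at least 75.5-fold higher in control, and MT-TC, MT-TG, MT-TL2 and MT-TR were at 0 in Parental as well, with 24.5 to 127 in control. MT-TS1 had no read in control and 213, 175 and 190 in Parental, at least 374-fold higher there, and MT-TA and MT-TQ were at 0 in control too, with 45.8 to 124 in Parental. MT-TL1, which lies next to MT-RNR2, had 397, 425 and 442 against 0, 2.46 and 2.18. By the strand of the gene, 4 of 7 on the minus strand and 2 of 10 on the plus strand were called higher in Parental, and 3 and 8 higher in control. Of the 17, 4 were under 10 in every control library and 9 in every Parental library, so these passed through 1 group alone.

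Nuclear copies of mitochondrial genes share sequence with the originals (66.7% of the words of MT-CO1 occur at another locus). The 188 such copies in the table summed to 17394, 18284 and 18373 normalized counts in control and 7014, 6572 and 4270 in Parental. MTATP6P1 made up most of it, with 11696, 13075 and 12559 against 3835, 3607 and 2250. MTND5P11 went the other way, with 43.4, 43.5 and 47.1 against 1521, 1435 and 937. The 1 named copy of MT-CO1 among them stayed at or under 4.93. The 13 mRNAs summed to 1108632 to 1197432 in control and 626198 to 907278 in Parental. Reads assigned to the copies do not show how many reads of the originals also match a copy. The part of the copies in the differences was not tested.

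**Figure D4:**
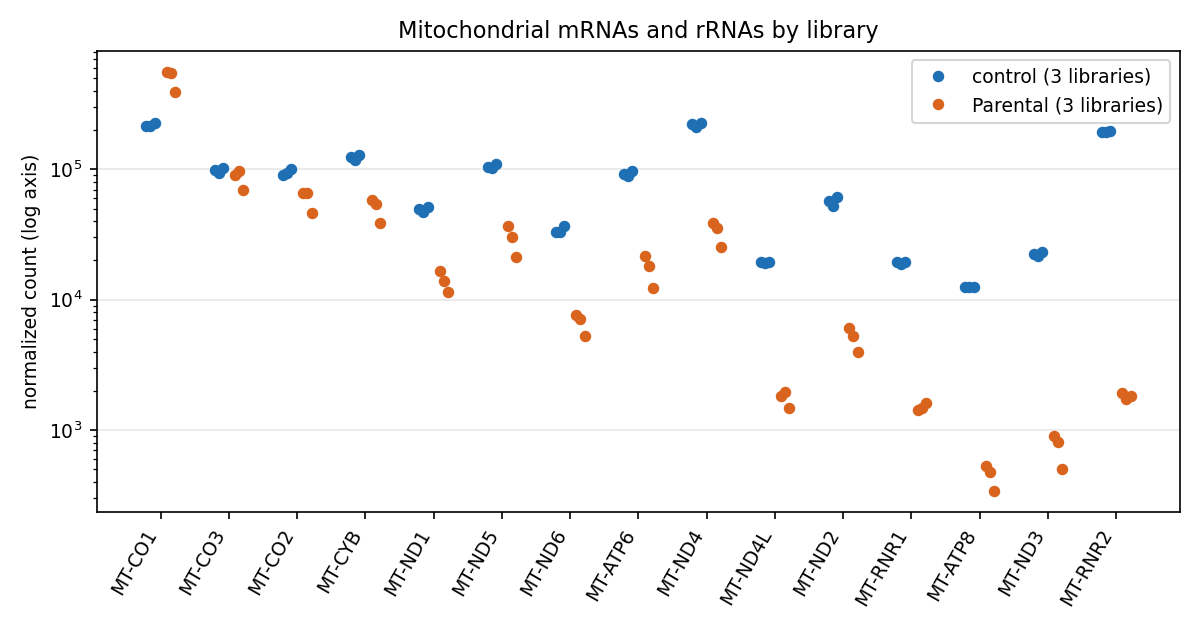
Normalized count (log axis) of the 13 mitochondrial mRNAs and 2 rRNAs in each of the 3 control (blue) and 3 Parental (orange) libraries, ordered by the log2 difference from 1.16 for MT-CO1 to -6.73 for MT-RNR2. Parental points lie below control points for all but MT-CO1 and, with overlap, MT-CO3.

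Nuclear genes for the same organelle did not follow these sizes. Of 79 tested genes of oxidative phosphorylation, 17 (21.5%) were called higher in Parental and 44 (55.7%) higher in control, with a median log2 difference of -0.32. Among nuclear coding genes the shares were 30.2% and 43.4%. ATP5B, the catalytic subunit of the ATP synthase, had 26849, 27811 and 28047 against 25225, 28269 and 28369 and was not called, and ATP5A1 had 12971, 13792 and 13679 against 9152, 10416 and 11688. Of 75 mitochondrial ribosomal protein genes, 16 (21.3%) were called higher in Parental and 46 (61.3%) higher in control (median -0.28). MRPS34 had 5906, 6298 and 6264 against 4541, 4603 and 4283, while MRPS16 had 3017, 3211 and 3116 against 5105, 5377 and 5215.

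Long non-coding RNAs differed in both directions. Of 6 tested nuclear ones, 4 (66.7%) were called higher in Parental and 2 (33.3%) higher in control, beside 36.2% and 38.4% of all tested genes. MALAT1, a speckle-associated RNA whose end is cut by RNase P and protected by a triple helix instead of a tail, had 6484, 6860 and 6922 in control and 24568, 15709 and 12670 in Parental. NEAT1, the scaffold of paraspeckles, had 13712, 13425 and 13551 against 2596, 2268 and 2542, and its long form ends like MALAT1 whereas its short form is polyadenylated. KCNQ1OT1, an imprinted antisense RNA, had 44.8, 30.9 and 37.0 against 284, 200 and 194, FTX had 93.7, 78.4 and 73.0 against 384, 276 and 357, MIAT had 50.3, 46.9 and 47.6 against 68.8, 66.6 and 74.1, and TUG1 had 5338, 5142 and 5135 against 4054, 3555 and 3340. For MALAT1 the 3 Parental libraries all lay above control, with replicate 1 the highest.

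Of 8 cytoplasmic long non-coding RNAs, 3 were called in each direction, or 37.5% beside 36.2% and 38.4% of all tested genes. LINC00657 (NORAD), which binds Pumilio proteins, had 6006, 6054 and 6181 against 14166, 13640 and 11856, and shares 56.1% of its words with another locus. GAS5, a snoRNA host whose spliced RNA decays with translation, had 3782, 3928 and 3803 against 1190, 1240 and 1166, and SNHG1, another such host, had 2371, 2403 and 2382 against 1026, 1109 and 1229. DANCR had 1412, 1473 and 1579 against 2345, 2492 and 2165, and EPB41L4A-AS1 had 629, 604 and 665 against 466, 444 and 440. ZFAS1 had 1523, 1531 and 1558 against 1978, 2009 and 1575, and was not called without any 1 of the libraries other than Parental replicate 3 (adjusted p of 0.0821 to 0.116) or with values scaled to nuclear coding reads (adjusted p = 0.0655). OIP5-AS1 and SNHG5 were not called, with log2 differences of -0.09 and 0.05, although OIP5-AS1 was without Parental replicate 1 (-0.16; adjusted p = 0.0253) and SNHG5 without Parental replicate 3 (0.13; adjusted p = 0.013). Across the snoRNA host genes, 4 of 14 tested (28.6%) were called higher in Parental and 7 (50.0%) higher in control. SNHG16 stood far from the rest at 1042, 967 and 1030 against 19352, 19838 and 17457. It has 30.6% of its exon bases under exons of the opposite strand.

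Genes with near-identical copies elsewhere in the genome were more often called higher than lower in Parental, and so were the copies. Of 1175 tested processed pseudogenes, 994 were called higher in Parental and 91 higher in control, beside 36.2% and 38.4% of all tested genes. Their median log2 difference was 3.66. For those of ribosomal protein genes the counts were 188 and 12 of 216 (median 4.15). RPL13AP5, a copy of the ribosomal protein gene RPL13A, had 256.5, 242.1 and 236.9 in control and 56840, 61550 and 52285 in Parental, while RPL13A had 14430, 14903 and 14442 against 15838, 17065 and 14531. The copy took 1.65% of the pair's normalized counts in control and 78.3% in Parental. RPL13AP5 shares 64.3% of its 31-base words with RPL13A, and the longest identical run is 212 bases.

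The translation elongation factor EEF1A1 and its copy EEF1A1P5 were both higher in Parental. EEF1A1 had 11213, 11145 and 11093 in control and 173634, 179718 and 160697 in Parental, and EEF1A1P5 had 125, 129 and 113 against 40454, 43369 and 37669. They share 90.9% of the words of the copy, with an identical run of 425 bases. RPL7AP6, PPIAP22, RPL4P4, RPLP0P6 and RPS2P46 differed the same way, with log2 differences of 2.63 to 8.93 for the copies and 1.05 to 2.26 for RPL7A, PPIA, RPL4, RPLP0 and RPS2. These pairs are among the 8 processed pseudogenes with the highest Parental values whose parent could be read from the name. The copies' values, and in part the parents', are uncertain since the same read can match both.

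Over the protein-coding genes the difference followed the share of each gene's 31-base words that also occur in a gene at another locus. The 5926 genes with none had a median log2 difference of -0.18, and the 6253 with up to 10% had -0.14. The median was 0.44 for 253 genes with 25% to 50%, 0.80 for 76 with 50% to 75%, and 1.02 for 82 with more than 75%. Of these last, 62.2% were called higher in Parental, against 27.1% of the genes with none. Exon overlap with a gene on the opposite strand went the same way, from -0.16 in 8060 genes with no overlap to 1.02 in 31 genes with more than 75%, and overlap on the same strand went the other way, from -0.12 in 11366 genes to -0.58 in 52, although the last value was -0.17 in the 23 of these with a mean of at least 100. How either experiment counted reads that match several loci, or reads of the opposite strand, the sources used here do not say, and its part in these differences was not tested.

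**Figure D5:**
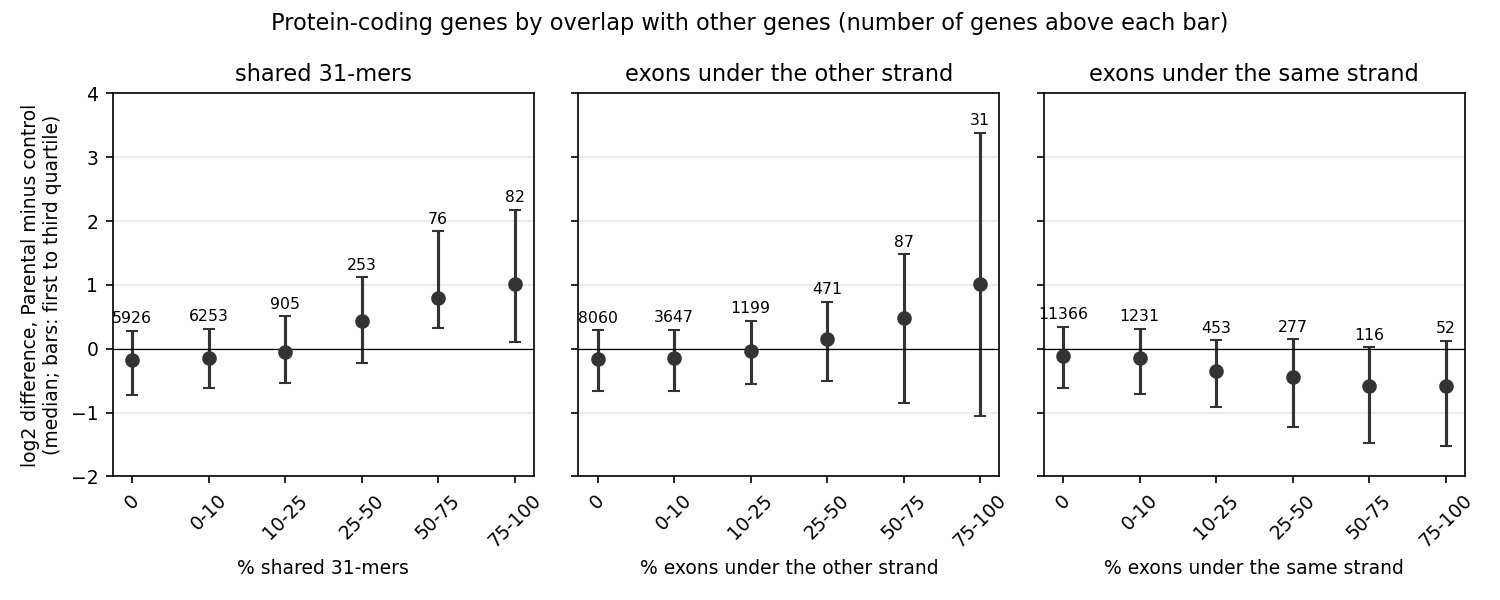
Median log2 difference (Parental minus control) of protein-coding genes by the percentage of their 31-base words found at another locus (left), of exon bases under exons of the opposite strand (middle) and of the same strand (right). Bars run from the first to the third quartile of the genes and the number above is the count of genes: the median goes from -0.18 to 1.02, from -0.16 to 1.02 and from -0.12 to -0.58.

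Of 83 tested ribosomal protein genes, 53 (63.9%) were called higher in Parental and 14 (16.9%) higher in control, with a median log2 difference of 0.58. Among nuclear coding genes the shares were 30.2% and 43.4%. Among the 27 that share under 10% of their words with another locus the median was 0.07. RPS4X had 45311, 47611 and 47194 against 83222, 85873 and 80144, RPS2 had 14346, 14764 and 15046 against 72323, 75107 and 65058, and RPL8 had 43066, 43824 and 44248 against 42783, 46872 and 42006 (not called). RPL10L, an intronless relative of RPL10, differed most at a log2 difference of 8.14, and RPL26 had the lowest value at -3.16, both named after their values were seen. The 17 housekeeping genes behaved likewise, with 12 called higher in Parental and a median of 0.98, and the 6 of them under 10% had a median of -0.08. TUBA1B, an alpha-tubulin gene, had 3314, 3323 and 3581 against 49316, 52998 and 54986, GAPDH had 25658, 26656 and 27159 against 73528, 80141 and 81976, and ENO1, another glycolytic enzyme, had 73610, 75761 and 76210 against 49873, 57714 and 72162. ENO1 was called higher in control (adjusted p = 0.0488), but not without any 1 of the libraries other than Parental replicate 3 (adjusted p of 0.11 to 0.135).

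Levels of coding genes were then compared across the baselines. Of 13509 tested nuclear coding genes outside the histone list, 4073 were called higher in Parental and 5859 higher in control (73.5% in all). Across these genes, the group means correlated with Pearson's r of 0.913 on the log2 scale and Spearman's rho of 0.929. Between single libraries, rho was 0.999 among control libraries, 0.991 to 0.996 among Parental libraries and 0.924 to 0.930 between the groups, and all 6 share gene length, base composition and annotation. The group means of 57.1% of these genes lay within 1.5-fold and of 78.9% within 2-fold, and 2.61% lay more than 8-fold apart. For 697 long non-coding genes rho was 0.737, for 1175 processed pseudogenes 0.284, and for 212 small non-coding RNAs -0.207. These are descriptions across genes, which are not independent replicates.

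Of the 100 coding genes with the highest normalized count per kilobase of exon in each baseline, 68 were the same. The 10 with the highest smaller mean included EEF2, RPL8, ACTG1, RPS4X, RPS16, CKB, ATP5B, RPL19 and ENO1. Per kilobase of exon, ACTG1, cytoplasmic gamma-actin, had 17080 in control and 23131 in Parental, RPL8 had 20247 and 20328, and ATP5B had 11873 and 11752. EEF2, which moves the ribosome along the mRNA, had 21709 and 49396, and CKB, brain-type creatine kinase, had 12098 and 18784. By number of genes, 14007 ± 98.5 (SD, n = 3) coding genes had at least 10 reads in a control library and 12515 ± 46.2 in a Parental library. After thinning all libraries to the 12220382 reads of the smallest, the expected numbers were 12794 ± 10.1 and 12459 ± 8.50.

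Length and base composition of coding genes moved with the difference only in part. Across 5 equal bins of exon length the median log2 difference ran from -0.18 in the shortest to -0.04 in the longest. Across bins of A+T share it was -0.01, 0.02 and 0.01 in the first 3 bins, -0.21 in the fourth and -0.50 in the bin with the most A+T (59.0% to 69.8%), where 65.5% of 2699 genes were called higher in control. In that bin the 3 Parental libraries had medians of -0.39, -0.49 and -0.61 against the control mean. CENPF, a kinetochore protein gene, had 11516, 10941 and 10995 against 1778, 1080 and 891, the widest gap among the 6 highest G2 and mitosis genes. Its exons cover 11690 bases, in the bin of the longest genes, and its A+T share is not given here.

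Genes that respond to stress and signals were also listed. Among nuclear coding genes, 30.2% were called higher in Parental and 43.4% higher in control. Genes of the integrated stress response, the ATF4 programme for amino acid supply, were called higher in Parental in 21 of 29 and higher in control in 3 (median 0.60, and also 0.60 for the 23 under 10% shared words). ATF4 itself had 9970, 10451 and 10130 against 20234, 21288 and 18507, and shares 35.6% of its words with another locus. SLC7A5, an amino acid transporter, had 3975, 4163 and 4148 against 10291, 10327 and 9511. PHGDH of serine synthesis was not called at a log2 difference of 0.01. Interferon-stimulated genes were called higher in control in 14 of 22 (63.6%) and higher in Parental in 3 (13.6%), with a median of -0.91. STAT2 had 1240, 1235 and 1175 against 497, 555 and 664, and BST2, tetherin, had 542, 539 and 539 against 86.6, 140 and 67.5. Of 12 heat shock chaperones 2 (16.7%) were called higher in Parental and 6 (50.0%) higher in control. For 21 immediate early genes the counts were 9 (42.9%) and 7 (33.3%). MYC had 1596, 1711 and 1678 against 7376, 8389 and 8590, HSP90AA1 had 47815, 50696 and 50962 against 22197, 21862 and 26596, and JUN had 9766, 9748 and 10040 against 7556, 7544 and 8122.

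Among coding genes outside the lists, those furthest apart were at or near 0 in 1 baseline. Higher in control were HBB, beta-globin, with 840, 880 and 852 and no read in Parental, at least 375-fold higher, and SLC18A2, the vesicular monoamine transporter, with 547, 564 and 579 and no read in Parental, at least 246-fold. SPRN, C1orf192, SCT, TRAF3IP3, CSH2, SATL1 and GP1BA had no read in Parental either, with control means of 100 or more and lower bounds of 73.6-fold to 248-fold. Of these genes, C1orf192 lies wholly under exons of the opposite strand, SLC18A2 has 56.1% and TRAF3IP3 29.5% of its exon bases there, and CSH2 shares 73.3% of its words with another locus. TMEM140, TTN and NECAB1 had 1 or 2 reads over the Parental libraries, and TTN, titin, had 347, 307 and 325 in control and a ratio of 432 (77.4 to 17100). In DD, HBB had no read, and in the 6 overexpression libraries it had 244 to 349.

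Higher in Parental were SFT2D3, with no read in control and 448, 532 and 449, at least 918-fold higher, DDT, D-dopachrome tautomerase, with 0.923, 0.572 and 1.59 against 948, 962 and 906, and ICAM4, with no read in control and 133.2, 123.3 and 102.4. The models of SFT2D3 and ICAM4 lie wholly under exons of the opposite strand. DDT has 36.9% of its exon bases under exons of the same strand and 17.2% under exons of the opposite strand. EIF3CL, CSNK2A3, SETSIP and EIF2S3L are relatives of other coding genes and share 65.5%, 72.2%, 46.8% and 35.6% of their words with another locus, and FEM1A, DEXI and ZNF22 have 36.1% to 45.3% of their exon bases under exons of the opposite strand. EIF3CL had 0.923, 2.29 and 0.529 against 659, 784 and 1203. H2BFS, an H2B-type gene outside the name pattern of the histone list, had 2.31, 2.29 and 3.17 against 1312, 1381 and 1468. RPH3A, a vesicle protein gene, shares 0.291% of its words and no opposite-strand exon, and had 0, 0 and 1.06 against 182, 222 and 231. The other libraries did not always follow their baseline. ZNF22 had 0 to 4.21 in DD and 0 to 288 in the overexpression libraries, and RPH3A had 381 to 471 and 0 to 638. FEM1A and DEXI had 4208 to 4531 and 1016 to 1197 in DD.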

How the data were processed

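RNA-seq libraries were compared in 2 groups of 3. The authors deposited normalized counts, which are used here as a signal: gene counts divided by 1 factor per library. Tools named in the submitters' processing notes are STAR 2.7.10b, HTSeq and DESeq2, with hg19 as the build; their roles and the annotation are not stated. Of the values, 100.0% lay within 0.01 of whole multiples of 1 read, so reads were recovered. Genes that reached 10 in 3 or more of the 6 libraries were tested on log2(value + 1) with limma 3.58.1 (R 4.3.3), at a Benjamini-Hochberg adjusted p under 0.05; folds on that scale understate low genes. On the recovered reads, edgeR 4.0.16 called 7051 genes higher in Parental and 7400 higher in control; DESeq2 1.42.0 was another alternative. In data simulated for this comparison (18465 genes), 200 of 200 changed and 9 of 18265 unchanged genes were called. The simulation gave both groups the same spread, with changes balanced in direction. In the libraries the biological coefficient of variation was 2.02% in control and 10.3% in Parental, and 74.6% of genes were called. The simulation therefore cannot show how the test performs on them. Gene types came from GENCODE 29 (34229 current and 1199 older names matched, 20272 did not). Groups without a read were set to a floor of 3 reads, and groups with 30 reads or fewer got 95% exact binomial intervals.

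The named genes were every tested member of the mitochondrial mRNA, mitochondrial rRNA, small structural and 2 long non-coding lists, up to 6 of the most abundant members of each other list, the 5 histones furthest apart and the 5 least, 12 coding genes a direction outside the lists (mean of at least 100, no overlap), and the 10 with the highest smaller mean per kilobase. PAX2, LHX1, NEFM, H3F3A, the further marker genes, histone cluster genes, mitochondrial tRNAs and copies with their parents stand outside this rule and were chosen after their values were seen. Members and lists were chosen with earlier results of these data known. The replicate numbers do not pair libraries across the groups. A few genes and 1 sequence that met these rules are not reported here.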

Additional observations from a re-analysis of the deposited data

How the results depend on the processing

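The depth of the Parental libraries, at most 13692599 reads, limits what can be said of genes near 1 read. Cells, drug, lysis and library protocol differ together and cannot be told apart, and the names follow hg19 whereas types and sequences follow GENCODE 29. Genes higher in Parental numbered 4993 to 8135 and genes higher in control 6043 to 9864 over the planned settings, from a filter of 10 in all 6 libraries to no filter. Leaving out 1 library gave 6303 to 7309 and 6388 to 7763, with the highest counts without Parental replicate 3. With the replicate number as a block the counts were 6742 and 7262. Deviations of same-numbered libraries correlated at 0.0382, 0.0604 and -0.0141, so the numbers were not taken to pair them, and the block changed the call of none of the 201 named genes. Of these 201, 7 lost their call under some setting. MCM4 changed sign between settings with a call under 1 of them: it was at 0.01 with all libraries (limma, adjusted p = 0.952) and from -0.20 without Parental replicate 3 (adjusted p = 0.0118) to 0.17 without Parental replicate 1.

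The restriction to names sharing under 10% of their 31-base words, chosen after seeing the data, also drops names without a matched transcript and left 3825 genes higher in Parental and 5776 higher in control. Under it the median log2 difference was 6.74 for replication-dependent and -0.55 for replication-independent histones, 7.05 for small structural RNAs, 1.61 for small nucleolar RNAs, -0.93 for their host genes, 0.07 for cytosolic and -0.35 for mitochondrial ribosomal proteins, -0.42 for oxidative phosphorylation, -0.89 for heat shock chaperones, -0.08 for housekeeping genes and 0.09 for lineage genes. A pseudocount of 5 gave 7.11 for replication-dependent histones, 3.22 for small nuclear, 1.5 for small nucleolar and 2.94 for small Cajal body RNAs. No filter gave 6.22, 4.36, 0.6 and 2.18 for the same lists, 7.62 for small structural RNAs and 0.52 for nuclear long non-coding RNAs. Scaling to nuclear coding reads gave 8.06 for replication-dependent histones and -0.26 for the processing factors. Leaving out 1 library gave 8.09 to 8.2 and -0.27 to -0.21 for these lists, 1.89 to 2.07 for small nucleolar RNAs, 0.23 to 0.45 for microRNA genes, 0.55 to 0.63 for the integrated stress response and 0.93 to 1.06 for housekeeping genes.

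Per nuclear coding read, the ratio of Parental to control was 250 for 7SK and 7SL copies, 3.83 for other small RNAs, 51.8 for histones, 0.0153 for mitochondrial rRNAs, 0.556 for mitochondrial tRNAs, 1.57 for ribosomal protein genes, 0.977 for other coding genes, 15.4 for processed and 0.831 for other pseudogenes, and 1.56 for names without a type. Spearman's rho of the coding genes was 0.917 for those at 10 or more in all 6 libraries and 0.936 for those under 10% shared words and overlapping exons. With at least 1 read, 16284 coding genes were detected in control and 14555 in Parental. Among genes with a mean of at least 100, the medians were -0.12, -0.12 and -0.11 in bins 1, 2 and 4 of length and 0.06 and 0.05 in bins 1 and 3 of A+T share. The cause of these changes was not tested.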
